A study of Mus musculus with 2 samples.

Results

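Mature migratory dendritic cells (DCs) were examined in single-cell RNA-seq of immune cells from MC38 tumors. They were selected on their own RNA: a barcode counted as a mature DC when it held at least 1000 UMIs (unique molecular identifiers, each marking 1 captured RNA molecule), at most 25% mitochondrial UMIs, at least 1 UMI of Ccr7 and of Fscn1, no UMI of Cd3d or Cd3g and at most 5 UMIs of the 3 C1q genes together. This rule gave 236 mature DCs among 8090 cells, 105 of 4679 in the Control library and 131 of 3411 in the IR library. MC38 is a mouse colon carcinoma line, grown here under the skin of mice whose genotype is given as WT; the study worked with young adult mice of both sexes. Control tumors were not irradiated, and IR tumors received 20 Gy in 1 dose with collection 4 days later. Each group was a single library made from 4 tumors together, in which animals could not be told apart, so no test between groups was possible. Cells were described as a CD45+ sort, while the sample records also carry the narrower label CD45+CD11b+Ly6Chi, and Itgam, the gene of CD11b, was found in only 5 of 100 Control and 4 of 125 IR mature DCs after thinning to 2000 UMIs per cell.

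Dendritic cells take up antigen in tissue and then mature: they lower uptake, raise antigen display and co-stimulation, and move through lymph vessels to the draining lymph node, where they meet T cells. Ccr7, the chemokine receptor that steers them to lymph vessels and nodes, and Fscn1, the actin-bundling protein of their long protrusions, mark this state in conventional DCs of either lineage, cDC1 and cDC2. In tumors, such cells are known for a joint program of T cell-attracting chemokines, IL-12 and inhibitory ligands such as PD-L1.

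The mature DCs carried their state clearly in both libraries. Ccl22, a chemokine that attracts regulatory and helper T cells and was not used in the rule, was found in 97 of 105 Control cells (92.4%) and 118 of 131 IR cells (90.1%). After thinning each cell to 2000 UMIs (100 Control and 125 IR cells, with 5 and 6 shallower ones left out), Ccl22 was found in 83.0% and 80.8% of mature DCs. In macrophage-like barcodes with at least 20 C1q UMIs, called C1q cells below, the thinned shares were 1.28% and 2.20%. The calcium channel subunit gene Cacnb3 was found in 74.0% and 80.8% of thinned mature DCs and the Rab GTPase regulator gene Tbc1d4 in 80.0% and 79.2%. Ptprc, the gene of CD45, had at least 1 UMI in 60.0% and 63.4% of the mature DCs. No barcode sequence was shared between the mature DCs of the libraries, and 6 were shared among all cells.

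The markers that define other lineages were low or at 0 in the summed UMIs. Below, a pair of values gives Control first and IR second. Of the 10 macrophage genes, Ms4a7 was at 0 and the summed level was 458 CPM (UMIs scaled to a common total, as in counts-per-million units) in Control and 302 CPM in IR, against 8770 and 5999 CPM in the empty droplets of the same libraries. Of 12 T cell genes, Cd4 and Cd8b1 were at 0 beside the Cd3 genes of the rule, with 27.3 and 39.5 CPM in all. Among the B cell genes Cd79a, Ms4a1, Ighd and Pax5 were at 0, and of 8 plasmacytoid DC genes Siglech, Klk1, Cox6a2 and Ly6d were at 0. The plasmacytoid list still reached 233 and 694 CPM, mostly through Bst2, which is also an interferon-induced gene. The 8 monocyte genes summed to 384 and 511 CPM and the 7 neutrophil genes to 1.19 and 15.5 CPM. The 9 NK cell genes summed to 194 and 446 CPM and the 8 fibroblast or tumor genes to 166 and 382 CPM.

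A few barcodes held many of the UMIs of these last lists. In Control 3 and in IR 9 of the mature DCs held 10 or more UMIs of the NK cell or the fibroblast or tumor list. An IR barcode with 44328 UMIs had 1 UMI of Ccr7, none of Ccl22 and 497 of the fibroblast or tumor list, 306 of them Dcn. Another IR barcode of 53977 UMIs had 1 UMI of Ccr7, none of Ccl22 and 542 of Cxcl10. An IR barcode of 16800 UMIs had 17 UMIs of Ccr7, none of Ccl22 and 289 of Gzmc, a granzyme of killer lymphocytes. These 3 barcodes meet the rule but lack Ccl22 and go against the name, and the 9 IR barcodes together held 16.1% of the UMIs of IR mature DCs. The cut can also take deep mature DCs, because the NK cell list holds Klrk1, found in 57 Control and 81 IR mature DCs. One IR barcode it took had 27295 UMIs, with 93 of Ccr7, 288 of Ccl22 and 19 of the NK cell list. The 12 are called barcodes with genes of another cell below, for short. Where leaving out these 12 barcodes ended a call named here, that value is given; what else other cells' RNA added to the results was not tested.

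More barcodes held 1 of the 2 markers than both. Ccr7 without Fscn1 was seen in 58 Control and 75 IR barcodes that met the other limits, with Ccl22 in 37.9% and 28.0%. Fscn1 without Ccr7 was seen in 88 and 109, with Ccl22 in 7.95% and 1.83%. Just inside, 4 Control and 7 IR mature DCs held exactly 1 UMI of Ccr7 or of Fscn1, and 5 and 3 held 3 to 5 C1q UMIs. Just outside, 2 and 1 barcodes held 6 to 10 C1q UMIs, and 9 and 15 held a Cd3 UMI with at most 5 C1q UMIs.

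In Control, 2.24% of cells were mature DCs, with an exact Clopper-Pearson 95% interval of 1.84% to 2.71%. In IR the share was 1.71 times as large, at 3.84% with an interval of 3.22% to 4.54%; with C1q at 0 UMIs, which 59 Control and 112 IR mature DCs met, the ratio was 2.60. The intervals of the 2 shares did not overlap, but they cover counting error only, not the spread between tumors. The limit of 5 C1q UMIs left out 16 Control and 4 IR barcodes that met the rest of the rule, 15 and 4 of them with Ccl22. The 2 comparison groups of DCs were cDC1 (Xcr1 and Clec9a together at 2 UMIs or more) and Cd209a cells (Cd209a at 2 or more, without Xcr1 and Clec9a). The cDC1 were 21 Control cells (0.449%) and 14 IR cells (0.410%), and the Cd209a cells were 48 (1.03%) and 63 (1.85%). Among these 3 DC groups the mature DCs took 60.3% in Control and 63.0% in IR, a ratio of 1.04. The larger share among all cells thus went with a like share among DCs, while C1q cells numbered 1502 in Control and 414 in IR.

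**Figure D1:**
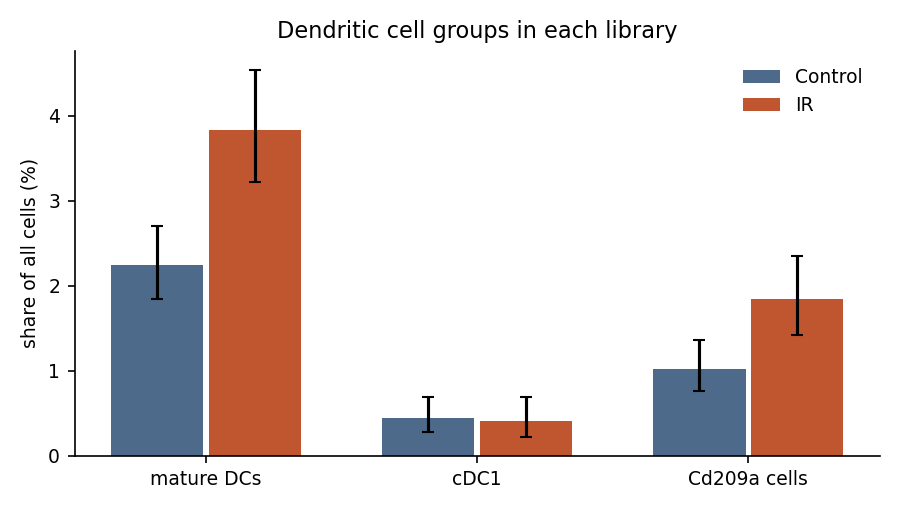
Share of all cells (y axis, percent) taken by mature DCs, cDC1 and Cd209a cells in the Control and IR libraries; error bars are exact Clopper-Pearson 95% intervals, and each bar is 1 library. Mature DCs stand at 2.24% in Control and 3.84% in IR, cDC1 at 0.449% and 0.410%, and Cd209a cells at 1.03% and 1.85%.

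The genes furthest above the other DCs formed the migratory program, given here as a description because members and comparison cells were chosen from the same matrix. By the smaller of the 2 libraries' log2 CPM ratios of mature DCs over cDC1 plus Cd209a cells, the first 15 genes were Fscn1, Cacnb3, Gm13546, Ccl22, Ccl5, Ccr7, Cd200, Il12b, Scin, Socs2, Dnajc12, Nudt17, Mreg, Tbc1d4 and Cd63. Fscn1 and Ccr7 were used by the rule. Ccl5, a chemokine for T cells and NK cells, stood at 7964 and 9492 CPM in mature DCs, against 79.5 and 56.4 CPM in the other DCs. Cacnb3 had 694 and 904 CPM against 1 UMI in the other DCs of each library. Cd200, an inhibitory surface ligand, had 300.4 and 485 CPM against 3.18 and 3.45 CPM. Socs2, a feedback inhibitor of cytokine signaling, had 378 and 515 CPM against 6.36 and 10.4 CPM. Nudt17, a nucleotide hydrolase gene, had 213 and 190 CPM and no UMI in the other DCs. The ranking chose these genes by that ratio, so their higher summed level in mature DCs of both libraries followed from the choice.

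MHC class II genes went the other way. H2-Ab1, a chain of the class II molecule that shows peptides to CD4 T cells, had 1262 and 827 CPM in mature DCs, against 6571 and 5835 CPM in the other DCs. Cd74, the invariant chain, had 8657 and 7732 CPM against 21286 and 21531 CPM. On the thinned scale the class II list had a median of 22 UMIs per mature DC in Control and 20 in IR, against 94 and 109 in cDC1 and 91 and 92 in Cd209a cells. The single cells were widely spread, from 2 to 164 and from 0 to 184 UMIs in mature DCs of Control and IR.

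**Figure D2:**
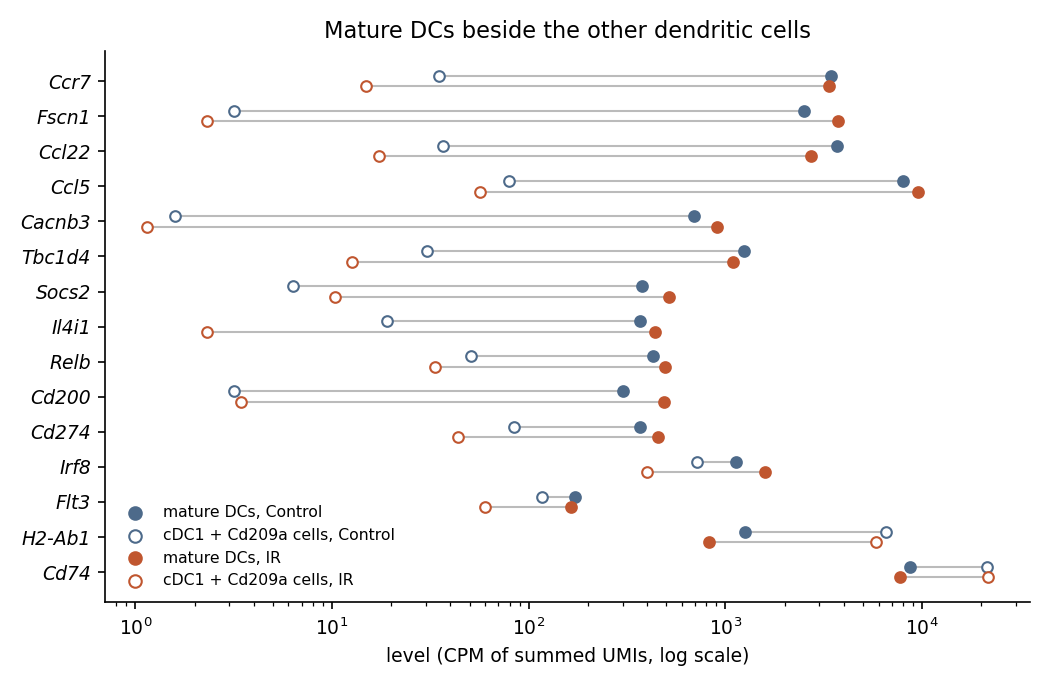
Level of 15 genes (x axis, CPM of summed UMIs, log scale) in mature DCs (filled circles) and in cDC1 plus Cd209a cells (open circles), for the Control and IR libraries. Ccr7 and Fscn1 were used to select the cells; Ccl5 lies at 7964 and 9492 CPM in mature DCs against 79.5 and 56.4 CPM in the other DCs, and H2-Ab1 and Cd74 lie lower in mature DCs.

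Genes of the cDC1 and cDC2 lineages were sparse, so most cells could not be given to either. Of thinned mature DCs, 71.0% in Control (61.1% to 79.6%) and 75.2% in IR (66.7% to 82.5%) held no UMI of the 8 cDC1 or 7 cDC2 genes listed. cDC2 genes alone were found in 19.0% and 21.6%, cDC1 genes alone in 3 of 100 and 1 of 125 cells, and both in 7 and 3 cells. The cDC2 share rested on Sirpa, a myeloid surface receptor found in 17.0% and 14.4% of cells. Xcr1 and Cd209a, which define the lineages, were each found in none of the 100 and 125 thinned cells, which allows shares of cells with such a UMI of up to 3.62% and 2.91% at this depth, and sets no limit on the share of cells of a lineage. Thinned C1q cells held UMIs of these cDC2 genes in 90.8% and 85.8% and of these cDC1 genes in 56.3% and 40.8%. Neither set therefore marks its lineage alone. Irf8, a transcription factor that cDC1 depend on, was high in the mature DCs at 1134 and 1591 CPM.

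For IR against Control, UMIs of all mature DCs were summed per library, 842091 in Control and 1418894 in IR, with median depths of 7411 and 9049 UMIs per cell. The log2 CPM ratio, IR over Control, is a difference between these 2 libraries. Genes with a mean of at least 50 CPM were kept, and a gene counted as past the fold when its log2 ratio was 1 or more in size. Of 2608 genes kept, 48 were past the fold and higher in IR (1.84%) and 24 were past it and lower (0.92%). The median log2 ratio of all kept genes was 0.05, and the middle 80% lay between -0.41 and 0.50.

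Among the lists with 10 or more kept genes, the interferon-induced one had the highest median. Type I interferon induces them through interferon-stimulated response elements in their promoters. Of 36 listed genes 34 were matched, and 16 passed the filter of 50 CPM, which a gene can pass through IR alone. Of these, 12 were past the fold and higher, none lower, beside 1.84% of all kept genes, and their median log2 ratio was 1.90 beside 0.05. Of the 18 genes under the filter, 18 had a higher CPM in IR, beside 56.0% of all 10685 genes under the filter that had a UMI.

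Isg15, a ubiquitin-like modifier, had 95 UMIs or 113 CPM in Control (exact Poisson interval 91.3 to 138) and 1458 UMIs or 1028 CPM in IR (975 to 1082), a log2 ratio of 3.19. Irf7, which amplifies interferon production, had 16.6 CPM (9.09 to 27.9) and 211 CPM (188 to 236), a log2 ratio of 3.66. Rsad2, an antiviral enzyme, had 41.6 CPM (29.0 to 57.8) and 204 CPM (181 to 229). Its share of thinned cells differed little, at 12 of 100 in Control (6.36% to 20.0%) and 20 of 125 in IR (10.1% to 23.6%). In none of these 3 genes did the Poisson intervals overlap, and all 3 levels were higher in IR. Among all kept genes the Poisson intervals of 522 of 2608 did not overlap. Oasl1 had 20.2 and 105 CPM, Oasl2 28.5 and 106 CPM, and Xaf1 23.8 and 111 CPM. Recomputed without the 12 barcodes described above, Xaf1 had 24.2 and 71.4 CPM. Bst2, the virus tether tetherin, had 151 and 568 CPM, a log2 ratio of 1.91 that was 1.24 without them. Ifi27l2a, an interferon-induced mitochondrial protein outside the list, had 260.1 and 1197 CPM. Herc6, Parp14 and Slfn5 were short of the fold at log2 ratios of 0.75, 0.66 and 0.63, and Trim30a, at 1.04, was at 0.87 without the 12 barcodes. Of the 16 kept genes of the list 4 were short of the fold in the main values, and 1 had a ratio below 0.

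The 5′ sequences of these genes were set beside the values because the response element is what the list shares by known biology. A core of the element, GAAA then any 2 bases then GAAA, on either strand, was searched in RefSeq promoters (build GRCm38.p6, 250 bases before to 50 after each start). It was found in 15 of the 26 listed genes with a promoter entry (57.7%), beside 3.99% of 27025 genes and 4.75% of the genes kept in mature DCs. Of the 10 listed genes past the fold that had an entry, 5 held it, Isg15, Ifit3, Rsad2, Bst2 and Trim30a. All kept genes of the list held it in 6 of 12, so the share past the fold was no higher than in the list itself. A match is a description of letters, not a bound site. The windows are written 5′ to 3′ on the strand of the gene, with the matched letters in capitals. Overlapping matches form 1 run in Isg15 (3 matches) and Bst2 (2 matches). In Ifit3, Rsad2 and Trim30a the matches are on the opposite strand. Ifit3 has a further match at 122 to 113 bases before the start, which is not printed. Cxcl10 is from outside the list, an interferon-gamma target and chemokine described further on.
Isg15, chr4:156200871-156200900, minus strand, 78 to 57 bases before the start: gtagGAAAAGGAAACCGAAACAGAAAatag
Ifit3, chr19:34583363-34583392, plus strand, 156 to 147 bases before the start: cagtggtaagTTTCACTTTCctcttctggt
Rsad2, chr12:26456553-26456582, minus strand, 120 to 111 bases before the start: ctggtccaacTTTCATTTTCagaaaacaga
Trim30a, chr7:104465210-104465239, minus strand, 36 to 27 bases before the start: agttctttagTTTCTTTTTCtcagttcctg
Bst2, chr8:71537580-71537609, minus strand, 130 to 115 bases before the start: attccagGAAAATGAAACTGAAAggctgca
Cxcl10, chr5:92349083-92349112, minus strand, 213 to 204 bases before the start: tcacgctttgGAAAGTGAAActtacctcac

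The difference was seen across cells and was widest in a minority of them. On the thinned scale, mature DCs held a median of 2 UMIs of the interferon-induced list in Control (range 0 to 13) and 4 in IR (range 0 to 62). Cells with 10 or more such UMIs numbered 3 among 100 and 27 among 125 (21.6%), and 12 and 9 cells held none. Isg15 was found in 15 of 100 thinned Control cells and 61 of 125 thinned IR cells (48.8%), and in 30.5% and 69.5% without thinning. In thinned C1q cells the shares were 164 of 1487 and 205 of 409 cells (50.1%), so these cells were no background without the gene. In the mature DCs the distributions overlapped over most of their range, with a long upper tail in IR.

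**Figure D3:**
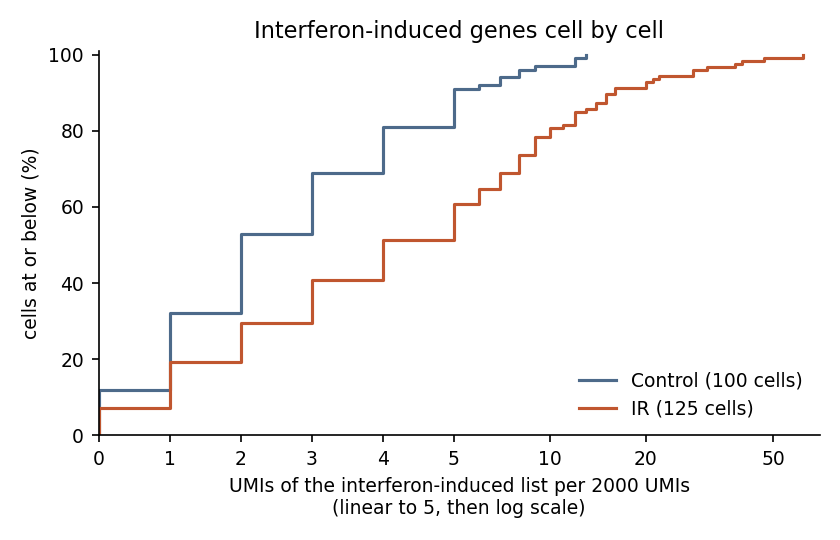
Cumulative share of mature DCs (y axis, percent) by UMIs of the interferon-induced list per 2000 UMIs of the cell (x axis, linear to 5, then log scale) in the Control and IR libraries. The IR curve lies to the right, with a median of 4 against 2 UMIs and a highest cell of 62 against 13.

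Leaving out the 12 barcodes with genes of another cell reduced the difference but did not remove it. The 9 IR barcodes held 34.3% of the IR UMIs of the list. The summed list stood at 1350 and 4408 CPM with them, a ratio of 3.26, and at 1364 and 3453 CPM without them, a ratio of 2.53. The median log2 ratio without them was 1.09 over 13 kept genes, 8 of them past the fold. Isg15 was then at 115 and 895 CPM (log2 ratio 2.97), Irf7 at 3.68 and Rsad2 at 2.29 on the log2 scale. The thinned medians stayed at 2 and 4 UMIs per cell, and cells with 10 or more were 3 of 97 and 24 of 116 (20.7%). In Cd209a cells the 16 genes kept in the main values had a median log2 ratio of 0.19, and in the few cDC1 one of 1.29. The whole list summed to 2773 and 3453 CPM in Cd209a cells and to 1372 and 3350 CPM in cDC1. In C1q cells it summed to 1491 and 5226 CPM, so the difference was not particular to mature DCs. Among single genes in cDC1, Isg15 had 41.2 and 253 CPM, while Ifit3 and Rsad2 had no UMI.

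Free RNA moved the same way, with the list at 1579 and 4063 CPM in the empty droplets of Control and IR. Apoe, a macrophage gene, allowed free RNA a share of at most 3.28% of Control and 4.79% of IR mature DC UMIs. After subtraction at those shares the median log2 ratio of the list was 1.94, with 12 genes past the fold.

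Other genes rested on single barcodes. Ifit3 had 1 UMI in Control and 141 UMIs in IR in only 10 cells, 66 of them in the barcode of 53977 UMIs, and its log2 ratio of 6.39 had a counting interval of 3.89 to 11.70. Without the top cell of each library the ratio was 3.89 against the floor of 3 UMIs. Iigp1, an interferon-gamma GTPase, went from a log2 ratio of 2.70 to 0.34 without the 12 barcodes. Gzmc had 289 of its 319 IR UMIs in 1 cell, and its log2 ratio went from 4.24 to 1.10. Gzmb went from 3.50 to 0.98. In empty droplets Gzmc stood at 1715 and 3457 CPM and Gzmb at 242 and 1280 CPM, far above their levels in mature DCs. These granzyme values are therefore not read as expression by mature DCs. Spp1, the secreted protein osteopontin, had 35.6 and 187 CPM in mature DCs, with 50.2% of the IR UMIs in 1 cell and 1353 and 2211 CPM in empty droplets.

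Among chemokines, 4 of 13 kept genes were past the fold and higher, beside 1.84% of all kept genes, and 2 lower, beside 0.92%. Cxcl10, which attracts CXCR3-bearing T cells and NK cells, had 29 UMIs or 34.4 CPM in Control and 1017 UMIs or 717 CPM in IR. Of the IR UMIs 53.3% lay in 1 barcode, and without the 12 barcodes it had 35.7 and 300 CPM, a log2 ratio of 3.07. Cxcl10 was found in 6 of 100 and 14 of 125 thinned mature DCs, smaller shares than the 16.4% and 26.7% of C1q cells, and stood at 302 and 578 CPM in empty droplets. Cxcl9, which acts on the same receptor, had 59.4 and 199 CPM and, without the 12 barcodes, 59.9 and 139 CPM. Cxcl9 was found in 8 of 100 and 13 of 125 thinned mature DCs, and in 29.5% and 24.4% without thinning, so the order of these shares turned with depth. Ccl2, a monocyte attractant, had 87.9 and 373 CPM, but 38.2 and 61.3 CPM without the 12 barcodes, and its direction turned to a log2 ratio of -0.70 in cells with Ccl22. Cxcl2, a neutrophil attractant, had 146 and 294 CPM and turned to -0.52 in cells without C1q UMIs. Both Ccl2 and Cxcl2 were more abundant in empty droplets than in mature DCs.

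None of the abundant chemokines of the mature state was past the fold. Ccl22 had 3680 and 2735 CPM (log2 ratio -0.43), Ccl17, which shares its receptor CCR4, had 1153 and 1204 CPM, and Ccl5 differed by 0.25 on the log2 scale. Cxcl16, the ligand of CXCR6, had 793 and 1149 CPM, a log2 ratio of 0.53. Ccl19, a CCR7 ligand, had no UMI in either library. Among receptors, Cxcr4, the receptor of Cxcl12, had 121 and 58.5 CPM, a log2 ratio of -1.05. It was short of the fold with a pseudocount of 10 CPM or in cells with Ccl22 (both -0.94), by the mean of per-cell CPM (-0.87) and with C1q at 0 UMIs (-0.73). Ccl6, a chemokine abundant in macrophages and in empty droplets, had 73.6 and 33.1 CPM, and its log2 ratio of -1.15 was -0.60 without the 12 barcodes. Of the 28 kept genes of the maturation and migration list, none was past the fold, and the median log2 ratio was 0.16. Nfkb1, Relb and the other kept genes of the NF-kB list, 20 in all, likewise had none past the fold and a median of 0.04.

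**Figure D4:**
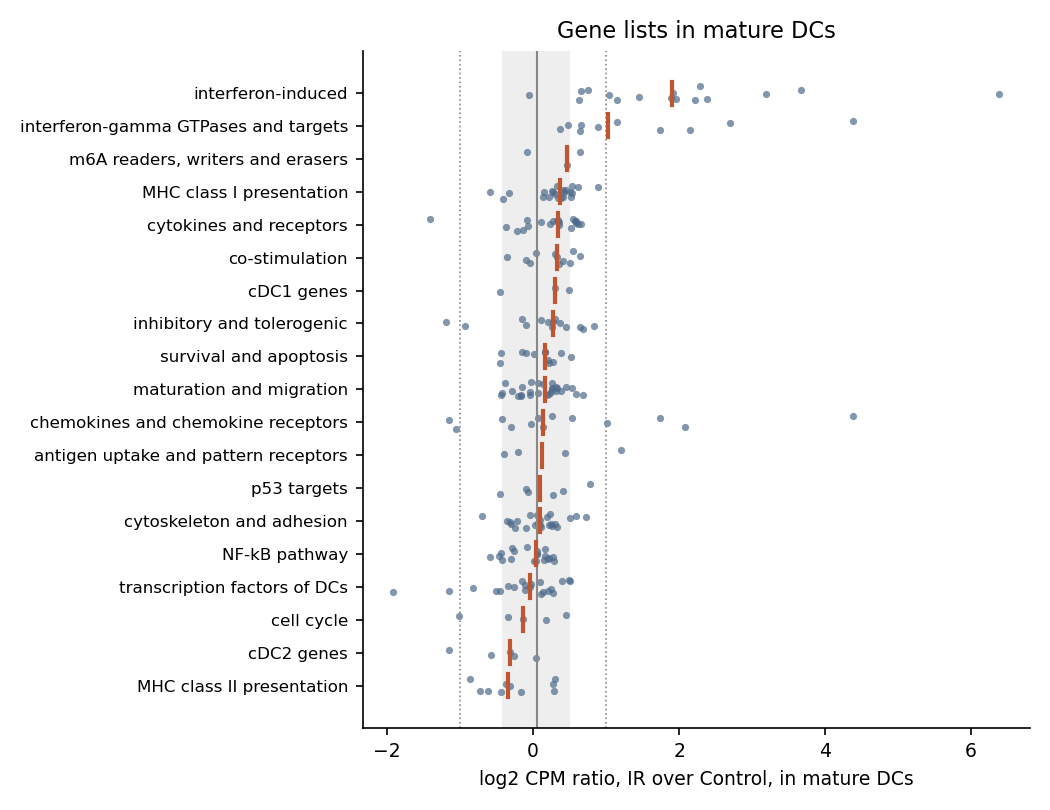
Log2 CPM ratio, IR over Control, in mature DCs (x axis) for the kept genes of each list (points), with the list median (orange bar); the grey band spans the middle 80% of all kept genes, the grey line is their median of 0.05, and dotted lines mark the fold of 1. The interferon-induced list has its median at 1.90, MHC class I at 0.36 and MHC class II at -0.35.

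In the co-stimulation list none of 11 kept genes was past the fold, and 8 had a ratio above 0, beside 1456 of all 2608 kept genes, with a median of 0.33. Cd86 had 253 and 371 CPM (log2 ratio 0.55), Cd80 126 and 167 CPM (0.41), and Cd40 265 and 333 CPM (0.33). The PD-1 ligands showed like values, Cd274 (PD-L1) at 367 and 452 CPM (0.30) and Pdcd1lg2 (PD-L2) at 179 and 279 CPM (0.64). Thinned to one depth, Cd274 was found in 43.0% of Control cells and 60.0% of IR cells, against 80.0% and 91.6% without thinning, and in 14.9% and 26.7% of thinned C1q cells. Cd83 did not follow, at 825 and 801 CPM. Cd200 was at a log2 ratio of 0.69, and Tnfrsf4 (OX40) at 74.8 and 133 CPM (0.83), with 102 and 143 CPM in empty droplets. Aldh1a2, the retinoic acid-producing enzyme of tolerogenic migratory DCs, was the only gene of the inhibitory list past the fold, at 72.4 and 31.7 CPM, and it was found in 19 and 14 cells; without the 12 barcodes its log2 ratio was -0.99.

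Il12b, the p40 subunit of IL-12 and IL-23, was lower in IR. It had 512 UMIs or 608 CPM in Control (556 to 663) and 324 UMIs or 228 CPM in IR (204 to 255), a log2 ratio of -1.41. It was found in 50.5% and 36.6% of cells without thinning and in 37.0% and 23.2% of thinned cells. Without the 12 barcodes the ratio was -1.40, and without the top cell of each library -1.33. Among cells with C1q at 0 UMIs it was -0.77, short of the fold. Il12b was lower both in its sum and in its share of cells, and it was at 7.48 and 4.01 CPM in empty droplets. Other cytokine genes went differently: Il15, which sustains NK cells and CD8 T cells, had 61.8 and 92.3 CPM, and its presenting receptor Il15ra 126 and 180 CPM. Il1b, an inflammatory cytokine gene of many myeloid cells, had 1307 and 1009 CPM.

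Of 21 kept transcription factor genes of DCs, 2 were past the fold and lower in IR, Nr4a1 and Klf4, beside 0.92% of all kept genes. None was past it and higher, and the median was -0.04. Nr4a1, an orphan nuclear receptor induced early after stimulation, had 119 UMIs or 141 CPM in Control and 53 UMIs or 37.3 CPM in IR, a log2 ratio of -1.92. Nr4a3, of the same family and tied to DC migration, had 970 and 548 CPM (-0.82). Klf4, linked to cDC2 development, had 271 and 122 CPM (-1.15), and Fosb 338 and 143 CPM (-1.24, or -0.99 with the highest 6% of doublet scores left out). In cDC1, Cd209a cells, C1q cells and empty droplets the log2 ratio of Fosb was -2.47, -0.85, -0.66 and -0.62. A lower Fosb was thus not particular to mature DCs. For Nr4a1 the values in the same order were -0.68, -0.64, 0.21 and -0.21. Rgs2, Ptgs2 and Hspa1b were also among the 12 lowest named genes, at log2 ratios of -1.42, -1.32 and -1.30. Hspa1b was found in only 7 and 8 cells. Clu, Eprs, Fabp4, Fn1 and Trps1 complete that group with Il12b and Aldh1a2, and Fn1, at -1.23, was at -0.55 without the 12 barcodes; of these Clu was lowest with 78 and 34 UMIs, found in 18 and 14 cells. Fabp4 had 61.0% of its Control UMIs in 1 cell, and its log2 ratio of -1.29 was -0.49 without the top cells. Factors of DC identity were short of the fold: Irf8 was at 0.49, Batf3 at -0.45, Id2 at -0.34 and Zbtb46 at -0.26 on the log2 scale.

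**Figure D5:**
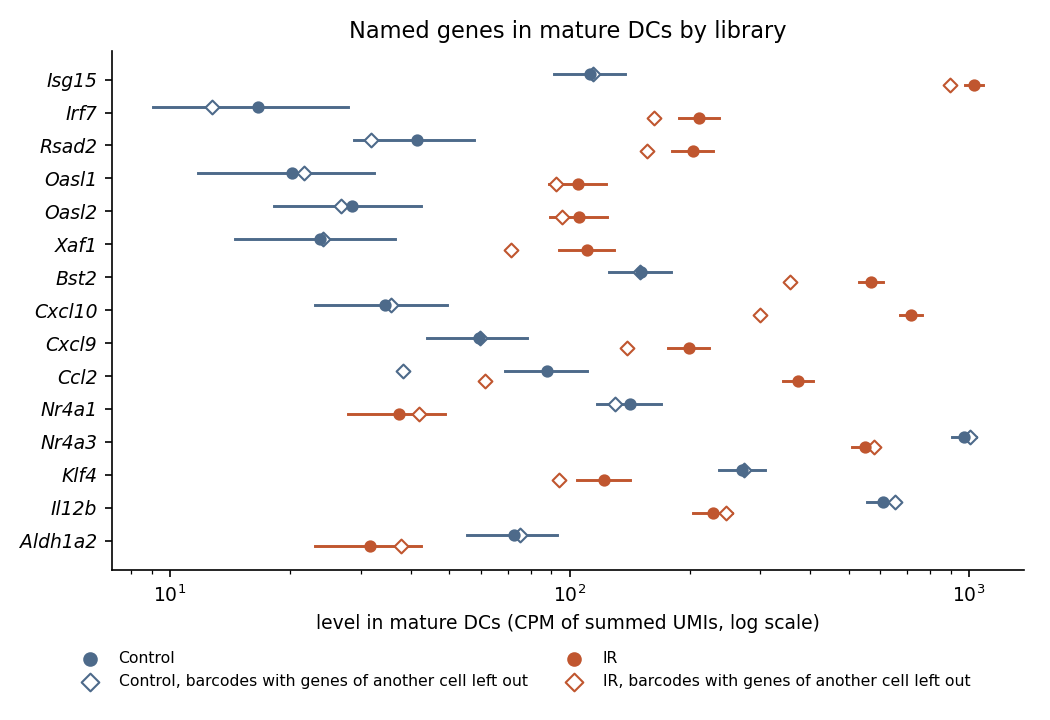
Level in mature DCs (x axis, CPM of summed UMIs, log scale) of 15 named genes in the Control and IR libraries; circles are all mature DCs with exact Poisson 95% intervals as lines, and open diamonds leave out the 12 barcodes with genes of another cell. Isg15, Irf7 and Rsad2 are higher in IR either way, Ccl2 comes close together, at 38.2 and 61.3 CPM, and Nr4a1, Klf4 and Il12b are lower in IR.

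In the MHC class I list 19 of 22 kept genes had a ratio above 0, beside 1456 of all 2608, none past the fold, with a median of 0.36. H2-D1 had 2787 and 4035 CPM (log2 ratio 0.53), the immunoproteasome gene Psmb10 221 and 340 CPM (0.62), and the non-classical H2-T22 162 and 299 CPM (0.89). Reads of the closely related H2 genes can be shared between them, so single H2 values are uncertain. In the class II list 3 of 10 kept genes had a ratio above 0, none past the fold, with a median of -0.35. H2-Ab1 differed by -0.61 and H2-Aa by -0.32, from 3674 to 2944 CPM. The 3 genes above 0 were the lysosomal Ctss, Ifi30 and Lgmn, at 0.29, 0.30 and 0.27. The class II median was -0.03 with the highest 6% of doublet scores left out, and -0.50 without the 12 barcodes. In empty droplets H2-Ab1 also stood lower in IR, at 2379 and 1106 CPM.

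Interferon-gamma targets overlapped in part with the genes above. Of 22 listed, 10 were kept, which a gene can reach through IR alone, and their median was 1.02. Past the fold and higher were 5, beside 1.84% of all kept genes: Irgm1, Iigp1, Cxcl9, Cxcl10 and Ifi47. Irgm1 had 20.2 and 89.5 CPM, and 69.7 CPM for IR without the 12 barcodes. Gbp2 at 0.48, Irf1 at 0.66 and Gbp5 at 0.89 were short of the fold. Without the 12 barcodes 7 genes were kept, 3 of them past the fold, with a median of 0.81.

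Of 6 kept p53 targets none was past the fold and the median was 0.10: Cdkn1a, the p21 cell cycle inhibitor, had 642 and 853 CPM (0.41), and Mdm2, the negative regulator of p53, 36.8 and 63.4 CPM (0.78). Of 5 kept cell cycle genes, Stmn1 was past the fold and lower, beside 0.92% of all kept genes. Stmn1 had 98.6 and 48.6 CPM in 13 and 13 cells, and 63.7 and 6.72 CPM without the 12 barcodes. With genes of mean CPM 20 or more kept, 3 of 11 cell cycle genes were past the fold and lower, but the median of the 11 was 0.11. The number of all genes past the fold and lower also rose at that filter. The whole cell cycle list summed to 2193 and 2300 CPM, so it was not lower in IR as a whole. Of 12 kept survival genes none was past the fold, with a median of 0.17; the 3 near-identical genes Bcl2a1a, Bcl2a1b and Bcl2a1d cannot be told apart with certainty. Of 24 kept cytoskeleton and adhesion genes none was past the fold, and Vim, the intermediate filament vimentin, had the highest ratio (0.72) at 2336 and 3847 CPM. Only 4 of the 30 listed uptake and pattern receptor genes were kept. Of these, Axl, a receptor for dying cells, was past the fold and higher, beside 1.84% of all kept genes. Axl had 30.9 and 71.2 CPM, with a log2 ratio of 0.72 without the 12 barcodes.

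The study's target Ythdf2, a reader of the RNA modification m6A, had 47 UMIs or 55.8 CPM (41.0 to 74.2) in Control and 124 UMIs or 87.4 CPM (72.7 to 104) in IR mature DCs. The log2 ratio was 0.65, short of the fold, and the Poisson intervals overlapped. Ythdc1 and Wtap, the other kept genes of the m6A list, had log2 ratios of 0.47 and -0.09. In the other DCs Ythdf2 stood at 38.2 and 56.4 CPM.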

How the data were processed

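CD45+ cells from tumors of 2 groups, Control and IR, were sequenced by droplet 3′ single-cell RNA-seq, 1 library per group. The authors made the gene counts with Cell Ranger 6.0.1 per the labels' processing notes, on mm10; the deposited matrices hold raw, unfiltered UMI counts, and their header names another Cell Ranger release. Unfiltered matrices keep free RNA, so barcodes of 1 to 100 UMIs were summed as empty droplets. Mature DCs were selected by the thresholds given in the report, and members and lists were chosen with earlier results of these data known. UMIs were summed per library and scaled to CPM. The 95% intervals of levels are exact Poisson ones and those of shares are Clopper-Pearson ones; neither covers more than counting error. Log2 ratios used genes of mean CPM 50 or more, with a library at 0 set to a floor of 3 UMIs, and a fold of log2 1. For shares of cells, each cell was thinned to 2000 UMIs with a fixed seed.

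The named genes were, for each list, up to 6 kept genes, those past the fold first. Named too were the 12 highest and the 12 lowest log2 ratios with intervals that did not overlap. That ranking left out mitochondrial, ribosomal and unnamed genes, Xist, Tsix, Y-linked genes and the genes of the rule. The 15 genes furthest above other DCs were named as well. Further members of the lists are given as examples chosen after their values were seen, as are Il15, Cd40 and Zbtb46. Doublets were not removed from the main values, since the study's own doublet calls were not used here; leaving out the highest 6% of Scrublet scores was an alternative. Other alternatives were TMM scaling, a pseudocount, other CPM filters, other selection limits and the subtraction of free RNA. Leaving out the 12 barcodes with genes of another cell, or the top cell of each gene, was chosen after seeing the data. The ratio step was tested on simulated data. Python 3.11.15, numpy 2.4.6, scipy 1.17.1, pandas 2.3.3, scanpy 1.11.5, matplotlib 3.10.9, R 4.3.3 and edgeR 4.0.16 (TMM only) were used. Some items of the lists are not reported here.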

Additional observations from a re-analysis of the deposited data

Results flagged for a closer look

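Empty droplets, which hold free RNA and entered no comparison of cells, held 3 of the lists at 2 or more times the Control level in IR. The interferon-induced list summed to 4063 CPM in IR empty droplets and 1579 CPM in Control ones, a ratio of 2.57. The NK cell list summed to 4194 CPM in IR and 1432 CPM in Control, a ratio of 2.93. The neutrophil list summed to 1149 CPM in IR and 209 CPM in Control. In the mature DCs themselves the NK cell list stood at 446 CPM in IR and 194 CPM in Control. The neutrophil list stood at 15.5 CPM in IR and 1.19 CPM in Control. Both lists were below the empty droplets of their library. In the other direction, the B or plasma cell list summed to 751 CPM in Control and 78.9 CPM in IR empty droplets.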

How the results depend on the processing

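No paired analysis was possible because neither group had a second library. The ratio of the mature DC share, IR over Control, was 1.71, and became 2.60 with C1q at 0 UMIs and 1.04 as a share of the 3 DC groups. The other 11 alternatives, dropping the C1q limit among them, stayed inside the counting interval of the ratio, 1.31 to 2.23. The number of genes past the fold and higher, 48, was 161 with mean CPM of at least 20 and 24 with at least 100. The number lower, 24, was 86 and 8 with those filters, 14 with a pseudocount of 10 CPM and 38 with C1q at 0 UMIs; fewer or more genes tested is part of how the filters act, and the other causes were not tested. The median of the interferon-induced list was 1.09 without the 12 barcodes with genes of another cell, the lowest value over the alternatives, and 1.95 was the highest. The ratio of Ccl2 turned to -0.70 in cells with Ccl22, and that of Cxcl2 to -0.52 with C1q at 0 UMIs. Of 439 values of single genes under alternatives, 385 stayed inside the counting interval of the gene's main ratio, 52 moved outside it and 2 reversed. Such an interval can be wide. Values where the gene fell under the CPM filter were not counted, such as Iigp1 at 0.34 without the 12 barcodes. With 1 pooled library per group, the spread between tumors is unknown.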
